A study of Mus musculus with 24 samples.

Results

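Sorted bone marrow progenitors of mice with floxed Tal1 and a Cre recombinase of blood cells were compared across the CD135 gate, using 6 of the study's 24 RNA-seq libraries: 3 of CD135+ LSK cells, labelled LMPP (lymphoid-primed multipotent progenitors), and 3 of CD135- LSK cells, labelled HSC (haematopoietic stem cells). LSK cells are the lineage-negative, Sca1-positive, Kit-positive fraction that holds stem and multipotent progenitor cells, and CD135 is the protein of Flt3. The libraries were taken by genotype (VaviCre Tal1F/F Rag2GFP, called KO), by the CD135 gate and by a negative Rag2-GFP reporter, all from the labels. Every gene that could be measured was compared, 16215 of the 17149 listed. The Cre is driven by Vav regulatory sequence, which is active across blood cells, and the labels give no age, sex or statement that replicates are separate animals. Spread between replicates, and with it every p-value, may thus be partly technical. The controls, called Ctrl, carry the same floxed allele and reporter and are labelled wild type (Tal1 F/F) Rag2GFP. Values are the authors' normalised counts; sequencing depth in reads is unknown.

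TAL1 is a basic helix-loop-helix transcription factor that binds DNA with E proteins, GATA factors, LMO2 and LDB1, and it is known for its role in erythroid, megakaryocytic and mast cell development. E proteins, freed from such partners, promote lymphoid genes. In marrow, loss of CD135 marks the stem cell end of the LSK compartment and its gain marks cells that keep lymphoid and myeloid potential while giving up most megakaryocyte and erythroid potential.

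The 6 libraries had totals between 6906083 and 8866404 normalised counts and listed 15415 to 15957 genes above 1. Mitochondrially encoded transcripts took 37.7% of CD135+ replicate 2 and 19.5 to 28.4% of the other 5. Replicate 3 of both gates held the Y-linked transcript Ddx3y (122 and 306 normalised counts, at most 0.105 elsewhere) and little Xist, the same pattern on both sides of the gate. Pearson correlations over genes were 0.909 to 0.934 among CD135+ libraries, 0.936 to 0.947 among CD135- libraries and 0.874 to 0.920 between them. Of the 6 libraries 3 list no gene at 0, with small fractions in place of 0, and the others list 755 to 1345.

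The genes behind the gates were read as checks. Tal1 (ENSMUSG00000028717, chr4:115056426-115071755, plus strand, GRCm38/mm10) stood at 329, 335 and 253 normalised counts in CD135+ replicates 1 to 3 and at 322, 518 and 253 in CD135- replicates. The KO libraries overlapped between the gates (log2 difference -0.195, exact two-sided permutation p = 0.9, n = 3 against 3, where 0.1 is the smallest p possible). In Ctrl cells the corresponding values were 667, 984 and 684 and 1746, 2109 and 1523, so every KO library lay below every Ctrl library. One value per gene does not show whether the reads cover the deleted exons. Flt3, the gate gene, stood at 3623, 3637 and 4199 against 369, 177 and 796. Its log2 difference was 3.33 ± 0.40 (SE; adjusted p = 3.53e-05), larger than the spread between replicates. Rag2, behind the reporter, stood at 45.3, 103 and 54.5 against 75.9, 68 and 107 and the libraries overlapped. Kit stood at 5500, 6456 and 5403 against 8066, 7346 and 5573, again overlapping. Ly6a, which encodes Sca1, was higher in CD135+ cells although both gates were Sca1-positive, at 1494, 1703 and 959.6 against 294, 129.7 and 191. Its log2 difference of 2.77 ± 0.64 (SE; adjusted p = 0.0318) did not pass when any 1 of the 6 libraries was left out (adjusted p up to 0.269).

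The label HSC was held against 5 stem cell markers, and in KO cells 4 of them were more abundant on the other side of the gate. Procr, encoding the endothelial protein C receptor used to sort stem cells, stood at 279, 265 and 203 normalised counts in CD135+ cells and at 30.6, 0 and 13.3 in CD135- cells. Mecom, a stem cell transcription factor, stood at 1283, 1375 and 1152 against 459, 239.5 and 485. Fgd5, used as a stem cell reporter locus, stood at 99.1, 112 and 179 against 20.4, 18.7 and 52.9, and Hlf is given below. In all 4 the CD135+ libraries lay above every CD135- library, but of these only Hlf passed adjustment (adjusted p = 0.0831 for Procr, 0.494 for Mecom and 0.487 for Fgd5). Slamf1, which encodes CD150, ran the other way, at 44, 34.5 and 51.1 against 141, 223 and 108 (adjusted p = 0.252). The 5 markers summed to 1580 to 1860 ppm of the library total in CD135+ and 264 to 570 ppm in CD135- libraries, a sum in which Hlf weighs most. Among Ctrl libraries the sums were 938 to 1080 and 446 to 889 ppm. The 2 populations are therefore called by their gate, CD135+ and CD135-.

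Across the gate, 67 genes were higher and 75 lower in CD135+ cells of KO mice, 0.413% and 0.463% of the genes tested and 0.876% together. A gene passed, and is said to be higher or lower, at a Benjamini-Hochberg adjusted p under 0.05 in limma's moderated test on log2(normalised count + 4.1), which all adjusted p-values below come from. Differences on this scale are CD135+ minus CD135-, and understate the change of genes near 0. At an unadjusted p under 0.05 there were 1322 genes, or 8.15%. For 67 of the 67 and 74 of the 75 the 3 libraries on one side all lay beyond the 3 on the other, as they did in 22.3% of all genes tested (11.2% above and 11.1% below). The median log2 difference over all genes was -0.01. In bulk RNA, fewer cells of a type and less RNA per cell cannot be told apart. The plot of difference against level shows lower genes reaching further from 0 than higher ones. Of the higher genes 48, and of the lower genes 60, differed at least 4-fold in the fit. Of the lower genes 37 had a mean under 10 normalised counts in CD135+ cells, and 23 of the higher genes had one under 10 in CD135- cells. Without CD135- replicates 1, 2 and 3 in turn, 73, 37 and 151 genes passed, with 69, 37 and 105 of them among the 142. Without CD135+ replicates 1, 2 and 3 in turn, 72, 106 and 90 passed, with 67, 88 and 77 among the 142. Of the 142, 34 passed in all 6 fits that left out 1 of these libraries and under 11 other settings followed gene by gene (15 higher, 19 lower), and no gene changed direction in those fits. Of the called genes, 7 higher and 8 lower reached the level needed for testing, 1 ppm in 3 libraries, only through the side of the gate where they were high, so they had to differ. Kif26b, Il6, Mcpt1, Mcpt2 and Trib3, described below, are among these.

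**Figure D1:**
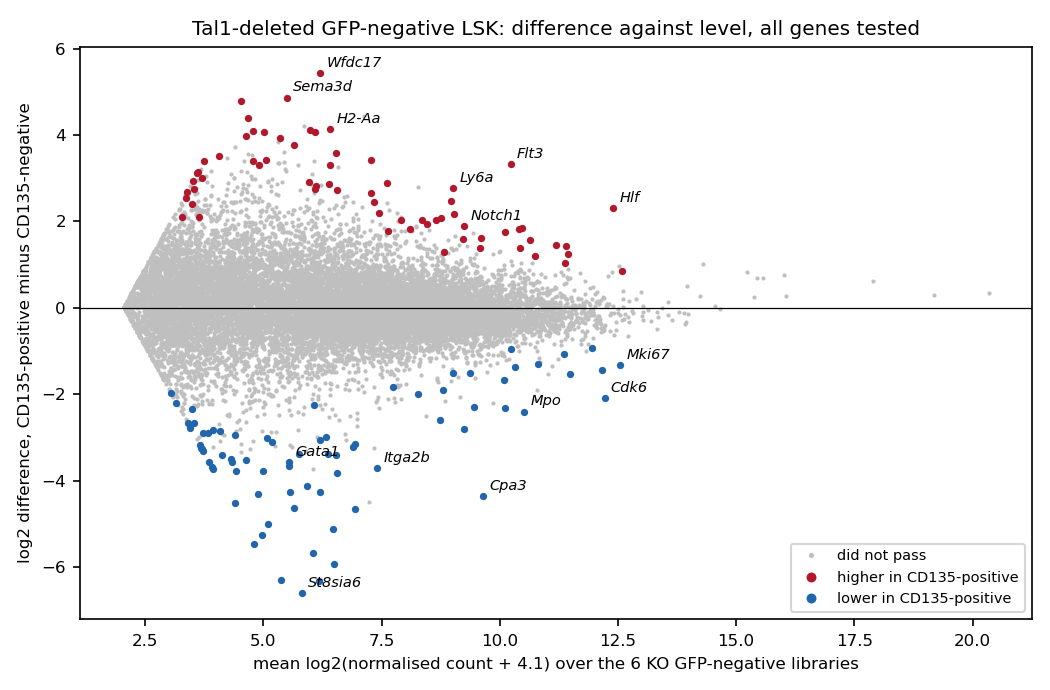
Log2 difference between CD135+ and CD135- LSK cells (vertical) against the mean log2 level over the 6 KO GFP-negative libraries (horizontal), 1 point per gene for 16215 genes. The 67 genes that passed upward are red and the 75 that passed downward are blue; the lowest value is that of St8sia6 at -6.60 and the highest that of Wfdc17 at 5.43.

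Genes of lymphoid priming included the antigen receptor and T lineage genes Dntt, Ighm and Notch1, all higher in CD135+ cells. Of 23 tested members, 6 were higher (Dntt, Lsp1, Notch1, Emb, Ighm, Satb1) and none was lower, with a median difference of 0.75. The CD135+ libraries lay wholly above in 12 members and wholly below in 1, against 11.2% and 11.1% of all genes. Dntt (ENSMUSG00000025014, chr19:41029275-41059525, plus strand), encoding the terminal transferase that adds bases at antigen receptor joints, stood at 1501, 803 and 1349 normalised counts against 275, 97.9 and 336. Its difference was 2.47 ± 0.44 (SE; adjusted p = 0.00325). Notch1 (ENSMUSG00000026923, chr2:26457903-26516663, minus strand), the receptor that directs T lineage choice, stood at 1452, 895 and 1218 against 349, 215 and 393. Neither gene's libraries overlapped, and Notch1 differed by 1.90 ± 0.28 (SE; adjusted p = 0.000541). Ighm, the IgM heavy chain locus that is transcribed before rearrangement, stood at 3304, 2962 and 2070.3 against 1213, 753 and 842 (log2 difference 1.57, adjusted p = 0.0191). Satb1, a chromatin organiser needed in lymphoid progenitors, stood at 2588, 2723 and 2457 against 1025, 929 and 1507 (log2 difference 1.19, adjusted p = 0.0378). Lsp1, a leukocyte actin-binding protein, and Emb, a transmembrane glycoprotein, differed by 2.03 (adjusted p = 0.0146) and 1.62 (adjusted p = 0.022). Rag1, Rag2 and Il7r, which mark the next step of lymphoid commitment, had differences of 0.84, -0.35 and 0.54 with overlapping libraries. Il7r was low on both sides, at 8.92, 27.5 and 19.4 against 6.86, 32.9 and 3.74. Notch1 passed whichever library was left out. Dntt did not pass without CD135- replicate 2 (adjusted p = 0.0643), nor did Lsp1 without that library or CD135+ replicate 1 (up to 0.212). Ighm failed without CD135- replicates 2 or 3 or CD135+ replicates 1 or 2 (up to 0.176), and Satb1 and Emb in every fit but that without CD135- replicate 3 (up to 0.32 and 0.286). Satb1 failed with a pseudocount of 0.1 ppm as well.

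Few genes of the committed lymphoid lineages passed. No member of the B lineage list of 9 tested genes passed, with a median of 0.03. Among 14 T and NK lineage genes none was higher and 2 were lower, Gzmb and Nkg7, which encode cytotoxic granule proteins. Nkg7 stood at 206, 149.7 and 155 normalised counts against 854, 1143 and 1155 (log2 difference -2.60, adjusted p = 0.0191) and failed in each fit that left out 1 library (adjusted p up to 0.127). Of 13 Notch receptors and targets, Notch1 was higher and Hes1 was lower. Hes1, a repressor that Notch signalling switches on in many cells, stood at 1.37, 3.74 and 1.86 against 60.6, 70.5 and 15.9. Both genes' libraries were apart, in opposite directions, and Hes1 differed by -2.85 ± 0.58 (SE; adjusted p = 0.0106). It failed without CD135- replicates 1 or 2 or CD135+ replicate 1 (up to 0.111). In Ctrl cells Hes1 was at most 1.45 in all 6 libraries. Another Notch target, Nrarp, differed by -1.87 (adjusted p = 0.537) and did not pass.

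**Figure D2:**
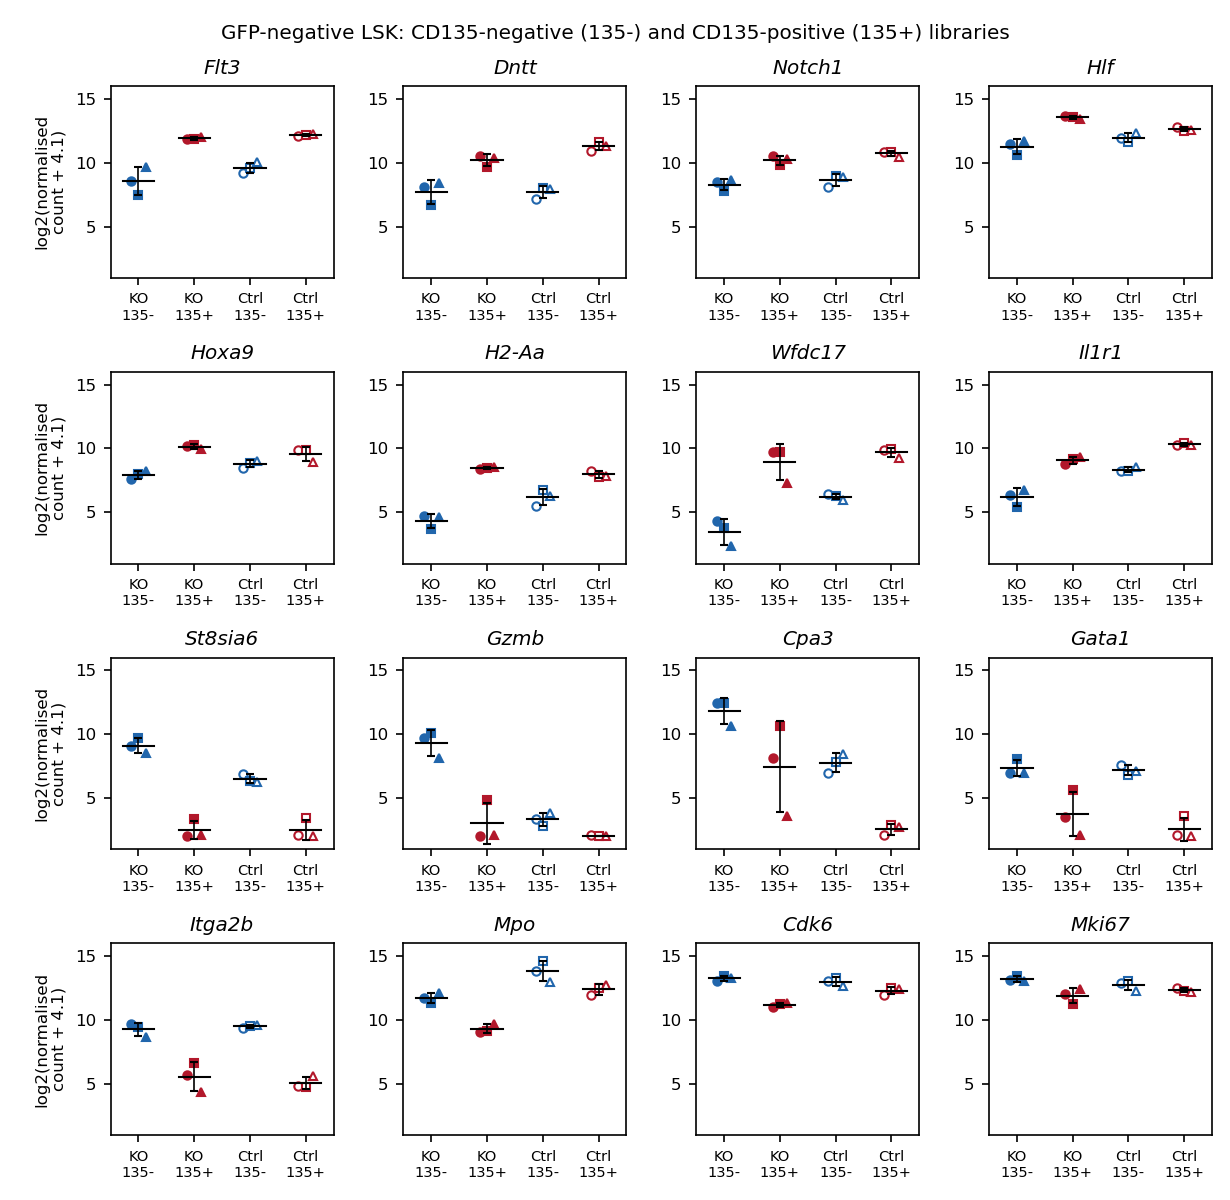
Level of 16 genes in each GFP-negative library on the scale log2(normalised count + 4.1), for CD135- (blue) and CD135+ (red) cells of KO (filled) and Ctrl (open) mice. Circles, squares and triangles are replicates 1, 2 and 3, bars are the mean and the SD of n = 3, and the KO sides do not overlap in any gene shown except Cpa3, whose CD135+ replicate 2 stands just above CD135- replicate 3.

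Some regulators of stem cells were more abundant in CD135+ than in CD135- cells. Of 22 transcription factors and regulators of stem cells, Hlf, Hoxa9 and Msi2 were higher and none was lower, with a median of 0.72. The CD135+ libraries lay wholly above in 8 of the 22 and wholly below in 4, against 11.2% and 11.1% of all genes. Hlf (ENSMUSG00000003949, chr11:90336536-90390895, minus strand), a PAR-bZIP factor of stem cells, stood at 12774, 12234 and 10914 normalised counts in CD135+ cells against 2812, 1535 and 3277. The lowest CD135+ library was more than 3-fold above the highest CD135- library, and the difference was 2.30 ± 0.40 (SE; adjusted p = 0.00255). Hoxa9 (ENSMUSG00000038227, chr6:52223100-52231089, minus strand), a homeobox factor of primitive progenitors, stood at 1154, 1243 and 969 against 195, 249 and 297, a difference of 2.18 ± 0.32 (SE; adjusted p = 0.000483). Msi2, an RNA-binding protein that sustains self-renewal, stood at 8271, 7918 and 8573 against 4706, 3406 and 6034 (log2 difference 0.85, adjusted p = 0.037). Hlf and Hoxa9 passed whichever library was left out, whereas Msi2 passed only without CD135- replicate 3 (up to 0.44). Gata2 and Gfi1b had the lowest differences of the list, at -2.13 and -2.13, and did not pass. In the Hox cluster list of 14 tested genes, 13 differences were positive with a median of 1.49. Hoxa9 alone passed, and in 10 of the 14 the CD135+ libraries lay wholly above, against 11.2% of all genes. Hoxa5, for instance, stood at 184, 156 and 76.6 against 48.7, 27.7 and 74.8 and Hoxa7 at 536, 586 and 329.7 against 242, 201 and 252. Among 30 surface and quiescence genes of stem cells, Itga2b was lower and none was higher (median 0.31). Of the 30, 8 lay wholly above and 5 wholly below, against 11.2% and 11.1% of all genes.

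A few receptors and adhesion molecules passed, in both directions. Among 34 tested cytokine receptors (median 0.32), the CD135+ libraries lay wholly above in 11 and wholly below in 1, against 11.2% and 11.1% of all genes. Besides Flt3, 1 of 34 tested cytokine receptors was higher, Il1r1, the signalling receptor for interleukin 1. It stood at 427, 564 and 626 normalised counts against 75.9, 38.1 and 106, a difference of 2.90 ± 0.51 (SE; adjusted p = 0.00279) that failed without CD135- replicate 2 (adjusted p = 0.0522). Il1rl1, the interleukin 33 receptor found on mast cells, had the lowest difference of the list, -4.50 (adjusted p = 0.0632). Of 29 adhesion and homing genes, Adgrl4 was higher and Itga4 was lower, and the median was -0.08. The CD135+ libraries lay wholly above in 5 of the 29 and wholly below in 5, so the list as a whole leaned neither way. Itga4, the integrin subunit that anchors progenitors to VCAM1, stood at 2349.5, 3679 and 2444 against 7654, 9963 and 5606 (log2 difference -1.44, adjusted p = 0.00279). Adgrl4, an adhesion G protein-coupled receptor, stood at 5113, 4462 and 3916 against 1856, 906 and 2654 (log2 difference 1.44, adjusted p = 0.0164). Both sets of libraries were apart. Itga4 failed without CD135- replicate 2 (up to 0.0529) and Adgrl4 without that library or CD135+ replicates 1 or 2 (up to 0.269).

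A pair of MHC class II genes, whose proteins present peptides to helper T cells, were higher in CD135+ cells. H2-Aa (ENSMUSG00000036594, chr17:34282744-34287823, minus strand), the class II alpha chain, stood at 339, 347 and 369.7 normalised counts against 21.6, 8.91 and 20.6. H2-Ab1, the beta chain encoded next to it, stood at 649, 490.4 and 422 against 178, 133 and 117. The 2 genes were the passing members among 15 tested genes of dendritic cells and class II presentation (median 0.84), with differences of 4.14 ± 0.82 (SE; adjusted p = 0.00833) and 1.84 ± 0.45 (SE; adjusted p = 0.0445). Cd74, the invariant chain, stood at 939, 677 and 436 against 39.7, 37.5 and 11.1, apart in all libraries yet short of the threshold (log2 difference 4.44, adjusted p = 0.109), as was H2-Eb1 (log2 difference 2.72, adjusted p = 0.148). Ciita, the master activator of the class II genes, differed by 0.62 (adjusted p = 0.999). In all, 8 of the 15 lay wholly above and none wholly below, against 11.2% and 11.1% of all genes. H2-Aa failed without CD135- replicate 2 (adjusted p = 0.091) and H2-Ab1 in every fit that left out 1 library (up to 0.251). With a pseudocount of 0.1 ppm neither passed, and 0 of the 15 did. Siglech, the defining marker of plasmacytoid dendritic cells, was under 1 ppm in all 6 libraries, while the 3 dendritic markers, which include H2-Aa and Cd74, summed to 112 to 164 ppm in CD135+ and 4.64 to 7.86 ppm in CD135- libraries.

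The promoter of H2-Aa is shown because class II promoters carry a CCAAT box next to the start. The 250 bases before the RefSeq start (chr17:34287824-34288073 on the minus strand, GRCm38.p6), 5′ to 3′ along the gene, hold CCAAT on 1 strand, written in capitals in its reverse form ATTGG, 48 bases before the start.
H2-Aa: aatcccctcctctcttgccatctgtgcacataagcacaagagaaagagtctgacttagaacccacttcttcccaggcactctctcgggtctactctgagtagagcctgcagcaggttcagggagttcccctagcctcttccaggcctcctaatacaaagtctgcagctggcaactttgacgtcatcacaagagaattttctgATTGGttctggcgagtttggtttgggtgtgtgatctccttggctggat
CCAAT or ATTGG occurs in 33.8% of the 32851 windows of this length in the RefSeq table, so this match is a description of the sequence.

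No member of the interferon response list passed the test, though most leaned one way. Of its 24 tested genes, 17 had all CD135+ libraries above all CD135- libraries, against 11.2% of all genes. None had the reverse, and the median was 0.91. Ifit3, an antiviral RNA-binding protein, stood at 116, 109.8 and 72.3 normalised counts against 11.4, 5.02 and 11.1 (log2 difference 2.98, adjusted p = 0.199). Oas2, which senses double-stranded RNA, stood at 782, 736 and 535 against 229.9, 145 and 211 (log2 difference 1.80, adjusted p = 0.14), and Irf7, a transcription factor of interferon genes, at 423, 217 and 321 against 83.8, 132 and 77.5 (log2 difference 1.66, adjusted p = 0.533). Isg15 overlapped between the gates. From the 6 libraries alone 10 of the 24 passed, all upward. In that setting 338 of all 13988 genes tested passed upward and 275 downward, against 67 and 75 of 16215 in the main fit. Outside the list, 3 genes of interferon-inducible families, chosen after their values were seen, were higher: Ifi203 (log2 difference 1.25, adjusted p = 0.00301), Ifi213 (log2 difference 3.31, adjusted p = 0.0191) and Ifit1bl1 (log2 difference 3.93, adjusted p = 0.0318). Ifi203 failed without CD135- replicate 2 (adjusted p = 0.0579) and Ifi213 without CD135- replicates 2 or 3 or CD135+ replicates 1 or 2 (up to 0.234).

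Several cell cycle genes were lower in CD135+ cells. Of 38 tested genes, Cdk6, Ccna2 and Mki67 were lower and none was higher, 36 differences were negative and the median was -0.81. The CD135+ libraries lay wholly below in 18 and wholly above in 1, against 11.1% and 11.2% of all genes. Cdk6 (ENSMUSG00000040274, chr5:3341485-3531008, plus strand), the kinase that drives entry into the cycle from quiescence, stood at 2031, 2412 and 2505 normalised counts against 8529.5, 11302 and 9800. The 2 sides were more than 3-fold apart at their nearest, and the difference was -2.09 ± 0.23 (SE; adjusted p = 1.82e-05). Mki67, the proliferation antigen, stood at 4079, 2417 and 5417 against 9067, 11073 and 8416 (log2 difference -1.33, adjusted p = 0.00833). Ccna2, cyclin A of S and G2 phase, stood at 339, 279.6 and 605 against 948, 1135 and 1278 (log2 difference -1.52, adjusted p = 0.0134). Cdkn1a, an inhibitor of the cycle, had the lowest difference of the list, -2.51 (adjusted p = 0.344). Cdk6 passed whichever library was left out. Mki67 failed without CD135- replicate 2 or CD135+ replicate 2 (adjusted p up to 0.095) and Ccna2 without CD135- replicates 2 or 3 or CD135+ replicates 1 or 2 (up to 0.102). From the 6 libraries alone 9 of the 38 were lower, as were 275 of all 13988 genes tested in that setting.

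**Figure D3:**
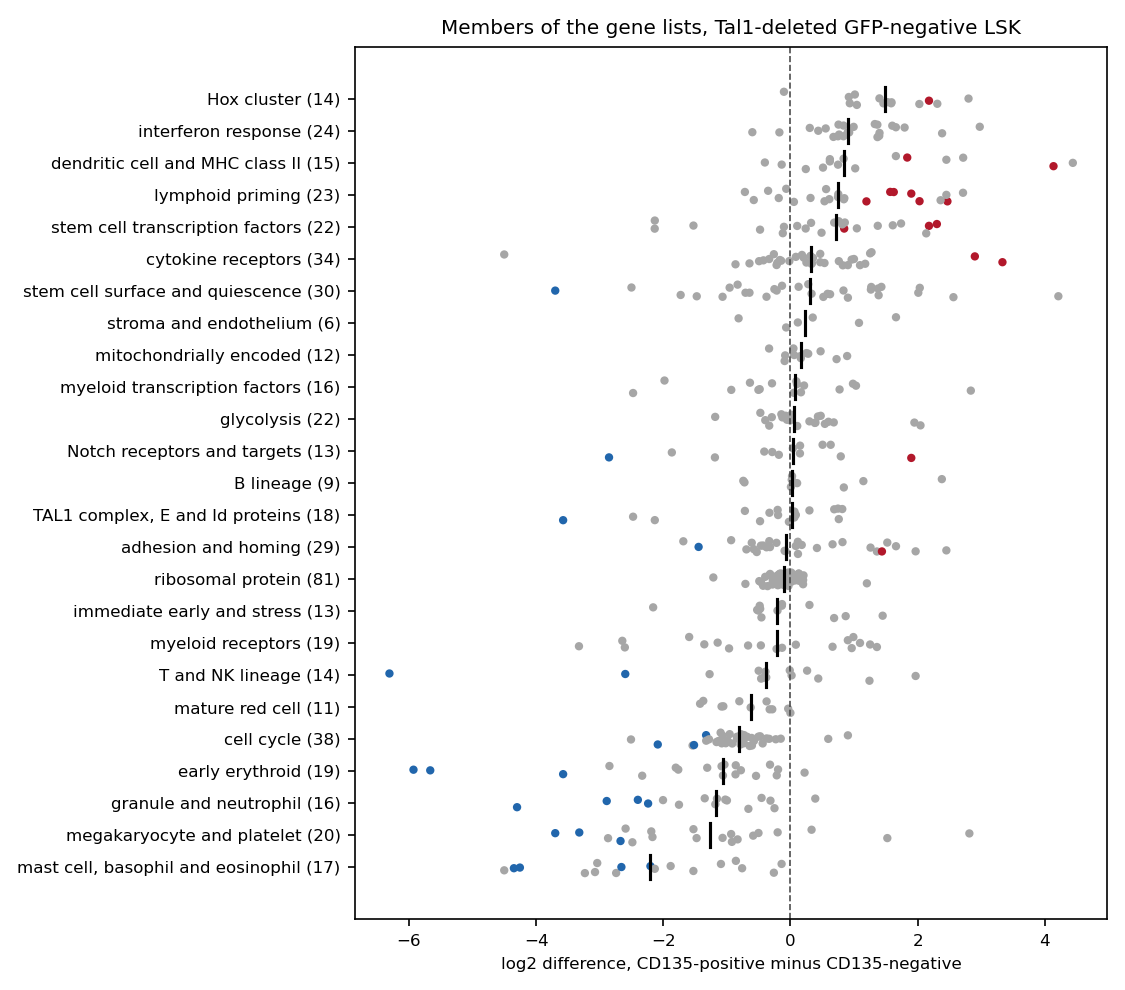
Log2 difference between CD135+ and CD135- cells for each tested member of the gene lists, with the number tested in brackets. Red and blue points passed, grey points did not, black bars are list medians and the dashed line is the median of all genes, -0.01. Medians run from -2.20 for mast cell genes to 1.49 for Hox genes. The mast cell median was -1.88 without the 4 members that could be tested only through the CD135- libraries.

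Mast cell genes gave some of the largest differences. Of 17 tested genes of mast cells, basophils and eosinophils, 4 (Il6, Mcpt1, Tpsb2 and Fcer1a) were abundant enough to be tested only through the CD135- libraries, so their direction was fixed. Of the 13 others, Cpa3 and Ms4a2 were lower and none was higher, with a median of -1.88. In 5 of the 13 the CD135+ libraries lay wholly below, against 11.1% of all genes. Cpa3 (ENSMUSG00000001865, chr3:20215620-20242181, minus strand), the mast cell carboxypeptidase, stood at 275, 1624 and 8.23 normalised counts in CD135+ cells against 5451, 5465 and 1587 in CD135- cells. CD135+ replicate 2 was just above CD135- replicate 3, so the groups overlapped although the difference of -4.35 ± 1.03 (SE; adjusted p = 0.0367) passed. Ms4a2, the beta chain of the high-affinity IgE receptor, stood at 3.89, 130 and 0.242 against 438, 435 and 163 (log2 difference -4.26, adjusted p = 0.0146). Fcer1a, the alpha chain of the same receptor, stood at 0.0961, 42.6 and 0.218 against 126, 186 and 16.3 and did not pass (log2 difference -3.07, adjusted p = 0.0607). The highest CD135+ value belonged to replicate 2 in each of these genes, and replicate 3 was the lowest CD135- library in each. The 4 mast cell markers Cma1, Mcpt4, Tpsb2 and Cpa3 summed to 3.68 to 329 ppm in CD135+ and 250 to 1140 ppm in CD135- libraries. In Ctrl cells the sums were 0.067 to 0.475 and 14.9 to 51.1 ppm. The part of such cells in the other differences was not tested. Over all tested members, 4 passed, 7 did without CD135+ replicate 2 or without CD135- replicate 3, and none did without CD135- replicate 2. Without CD135- replicate 1 there was 1, and leaving out CD135+ replicate 1 or 3 left 2 each. Cpa3 and Ms4a2 failed without CD135- replicates 1 or 2 or CD135+ replicates 1 or 3 (adjusted p up to 0.271 and 0.132), and Cpa3 with a pseudocount of 0.1 ppm.

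Of the serine proteases encoded next to each other on chromosome 14, Gzmb and Ctsg were lower in CD135+ cells. Within chr14:55941451-56262260 (GRCm38/mm10) the table held 7 tested proteases. Mcpt1 and Mcpt2 passed as well, but could be tested only through the CD135- libraries. Gzmb (ENSMUSG00000015437, chr14:56258838-56262260, minus strand), encoding granzyme B, stood at 0.106, 25.2 and 0.245 normalised counts against 839, 1098 and 282, a difference of -6.31 ± 0.72 (SE; adjusted p = 1.82e-05). Ctsg, cathepsin G of neutrophil and mast cell granules, stood at 10.2, 0.67 and 0.248 against 94, 156 and 139 (log2 difference -4.30, adjusted p = 0.00575). Mcpt1 and Mcpt2, mucosal mast cell chymases, stood at 0.0574, 0 and 0.121 against 8.86, 11.2 and 31.3 and at 0.0785, 3.78 and 0.172 against 15.7, 60.9 and 41.9, with differences of -2.20 (adjusted p = 0.00325) and -2.90 (adjusted p = 0.000689). Cma1 and Mcpt4, chymases of connective tissue mast cells, overlapped between the gates, at 94.2, 516 and 17.8 against 816, 687 and 43.2 for Mcpt4. The mast cell proteases are close copies of each other, so reads may have been shared or lost among them in counting. Gzmb passed whichever library was left out. Ctsg failed without CD135- replicate 2 (adjusted p = 0.0574). Mcpt1 and Mcpt2 were too low to be tested when any CD135- library was left out.

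The promoters shown here are a pick of 3 from the 6 genes of this interval with a window, and all 3 hold the motif marked in them. Each is the 250 bases before the RefSeq start (GRCm38.p6), 5′ to 3′ along the gene, with the RUNX core TGTGGT or its reverse ACCACA in capitals: Gzmb at chr14:56262335-56262584 on the minus strand, Ctsg at chr14:56102575-56102824 on the minus strand and Mcpt1 at chr14:56017714-56017963 on the plus strand.
Gzmb: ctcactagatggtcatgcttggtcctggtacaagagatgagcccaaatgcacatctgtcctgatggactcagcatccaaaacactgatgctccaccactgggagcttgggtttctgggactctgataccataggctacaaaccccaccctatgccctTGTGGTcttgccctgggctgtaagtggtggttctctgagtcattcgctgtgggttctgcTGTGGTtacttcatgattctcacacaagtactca
Ctsg: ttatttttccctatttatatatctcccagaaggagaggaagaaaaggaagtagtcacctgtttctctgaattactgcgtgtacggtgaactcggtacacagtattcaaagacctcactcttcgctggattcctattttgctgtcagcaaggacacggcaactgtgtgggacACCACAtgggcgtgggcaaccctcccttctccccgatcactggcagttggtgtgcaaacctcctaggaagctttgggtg
Mcpt1: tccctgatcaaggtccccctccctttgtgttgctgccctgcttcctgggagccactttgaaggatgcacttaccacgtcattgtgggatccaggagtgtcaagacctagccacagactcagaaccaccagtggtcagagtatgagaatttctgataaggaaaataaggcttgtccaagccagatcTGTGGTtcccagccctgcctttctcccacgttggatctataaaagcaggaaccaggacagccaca
Gzmb holds TGTGGT at 93 and 34 bases before the start, Ctsg holds ACCACA 79 bases before it and Mcpt1 holds TGTGGT 65 bases before it. Of the 7 tested proteases 6 had a window in the table and 5 of these held the motif, against 14% of all 32851 windows. Counted by window as well, it was held by 8 of the 62 windows of lower genes (12.9%) and 15 of the 77 of higher genes (19.5%). A match is letters only and says nothing of binding.

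Neutrophil granule genes included 4 that were lower in CD135+ cells. Of 16 tested, Ctsg, Ms4a3, Mpo and Cst7 were lower and none was higher, with a median of -1.17. Of all genes tested, 0.463% were lower. The CD135+ libraries lay wholly below in 6 of the 16 and wholly above in none, against 11.1% and 11.2% of all genes. Mpo (ENSMUSG00000009350, chr11:87793581-87804413, plus strand), myeloperoxidase, stood at 531, 572 and 838 normalised counts against 3358, 2519 and 4497. The libraries were at least 3-fold apart, and the difference was -2.40 ± 0.49 (SE; adjusted p = 0.0115). Ms4a3, a marker of granulocyte and monocyte progenitors, stood at 0.106, 2.2 and 0.244 against 36.3, 29.7 and 30.2 (log2 difference -2.89, adjusted p = 0.0218). Elane, neutrophil elastase, stood at 51.6, 54.5 and 19.4 against 153, 210.3 and 143 and did not pass (log2 difference -2.00, adjusted p = 0.521), and Prtn3 overlapped. Without CD135- replicate 2 the median was -0.64 and 1 member passed, and without CD135- replicates 1 or 3 it was -1.39 and -1.61 with 1 each. Leaving out a CD135+ library left 2. Mpo failed without CD135- replicates 1 or 3 or CD135+ replicates 1 or 2 (adjusted p up to 0.0779). Ms4a3 passed only without CD135+ replicate 2 and Cst7 only without CD135+ replicate 1 (up to 0.124 and 0.199 otherwise), and Ms4a3 failed with a pseudocount of 2 ppm. None of 16 myeloid transcription factors (median 0.07) and none of 19 myeloid receptors (median -0.22) passed. The 5 granulocyte markers summed to 133 to 170 ppm in CD135+ and 542 to 768 ppm in CD135- libraries, and the 3 monocyte markers to 2.31 to 10 and 12.8 to 28.6 ppm.

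Some genes of early erythroid cells and megakaryocytes were lower in CD135+ cells. Of 19 early erythroid genes, Mfsd2b, Car1 and Gata1 were lower (median -1.06), and of 20 megakaryocyte and platelet genes Itga2b, Gp1bb and Treml1 were lower (median -1.27). No member of either list was higher, and the CD135+ libraries lay wholly below in 7 and 11 of them, against 11.1% of all genes. Gata1 (ENSMUSG00000031162, chrX:7959260-7978071, minus strand), the master factor of both lineages, stood at 7.67, 44.6 and 0.237 normalised counts against 122, 259 and 122, a difference of -3.58 ± 0.79 (SE; adjusted p = 0.0208). Mfsd2b, the sphingosine 1-phosphate exporter of red cells and platelets, stood at 6.4, 20.6 and 1.85 against 890.5, 1439 and 267 (log2 difference -5.93, adjusted p = 0.00055). Car1, carbonic anhydrase 1 of erythroid progenitors, stood at 11.4, 7.58 and 0.247 against 534, 1349 and 137 (log2 difference -5.67, adjusted p = 0.0142). These 3 genes were apart in all libraries, with CD135- replicate 2 the highest in each. Itga2b (ENSMUSG00000034664, chr11:102453297-102470122, minus strand), the platelet integrin CD41, stood at 47.9, 94.4 and 16.2 against 802, 693 and 402 (log2 difference -3.70, adjusted p = 0.0123). Gp1bb, a subunit of the von Willebrand factor receptor, stood at 0.0888, 0 and 0.198 against 50.5, 87.1 and 10.7 (log2 difference -3.32, adjusted p = 0.00749), and Treml1, a platelet receptor, at 0.0886, 0 and 0.198 against 35.9, 25.8 and 11.9 (log2 difference -2.67, adjusted p = 0.0146). Vwf, in contrast, overlapped, at 148, 9.87 and 27.3 against 98.4, 162 and 31.9, as did Epor. Mature red cell genes did not pass in 11 tested (median -0.63). The 4 erythroid markers summed to 189 to 289 ppm in CD135+ and 291 to 369 ppm in CD135- libraries, and Hbb-bt overlapped (549.9, 670.4 and 754 against 693, 755 and 573). Mfsd2b passed whichever library was left out. Gata1 and Itga2b failed without CD135- replicates 1 or 2 or CD135+ replicates 1 or 3 (adjusted p up to 0.188 and 0.0982), Car1 without CD135- replicates 1 or 2 or CD135+ replicate 3 (up to 0.171), Gp1bb without CD135- replicates 1 or 2 (up to 0.102), and Treml1 in all but the fit without CD135- replicate 3 (up to 0.104). With a pseudocount of 0.1 ppm Gata1, Car1 and Itga2b did not pass, nor Treml1 with 2 ppm. The 3 megakaryocyte markers Pf4, Itga2b and Gp1bb summed to 8.59 to 14.4 ppm in CD135+ and 75.1 to 154 ppm in CD135- libraries, and their cells' part in the differences was not tested.

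Of the partners of TAL1, Gata1 alone passed across the gate. Among 18 tested genes of the TAL1 complex and the E and Id proteins, Gata1 was lower and none was higher, and the median was 0.02. Lyl1, the closest relative of TAL1, stood at 1038, 847 and 694 normalised counts against 593, 392 and 477 and Lmo2 at 3726, 4273 and 3065 against 2480.5, 2311 and 2032. Both were apart in all libraries without passing, with differences of 0.81 (adjusted p = 0.411) and 0.69 (adjusted p = 0.228). Gata2 stood at 914, 1258 and 502 against 4478, 5148 and 2142, likewise apart in the other direction (log2 difference -2.13, adjusted p = 0.696). Id2, an inhibitor of E proteins, differed by -2.48 (adjusted p = 0.259).

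Several of the largest differences lay outside these lists. The 12 largest higher genes ran from Wfdc17 (5.43) through Sema3d (4.86), Postn (4.79), Unc45b (4.38), H2-Aa, Myof (4.12), Wfdc18 (4.08), Abcg3 (4.08), Sdc1 (4.08), Ddx4 (3.97) and Ifit1bl1 (3.93) to Crybg1 (3.77). Wfdc17 (ENSMUSG00000069792, chr11:83703991-83706268, plus strand), a secreted WAP-domain protein, stood at 847, 837 and 152 normalised counts against 15.9, 9.58 and 0.939. Sema3d, a secreted semaphorin, stood at 281, 265 and 186 against 1.19, 7.61 and 5.42, and Postn, the matrix protein periostin, at 141, 53.9 and 208 against 0.0525, 0.492 and 0.369. In these 3 genes no CD135- library exceeded 15.9, and the adjusted p-values were 5.33e-05, 0.00279 and 0.00469. Of the 12, Wfdc17, Sema3d, Postn and Myof passed whichever library was left out. Unc45b, Wfdc18 and Ddx4 failed without CD135- replicate 2 (adjusted p = 0.0579, 0.0755 and 0.0579), and Abcg3 without CD135- replicates 2 or 3 or CD135+ replicate 1 (up to 0.0661). Sdc1, Ifit1bl1 and Crybg1 passed only without CD135- replicate 3 (up to 0.116, 0.32 and 0.257 otherwise). These 3 and Abcg3 also failed with a pseudocount of 0.1 ppm, as did Emilin2 and Scin among the lower genes. The 12 largest lower genes ran from St8sia6 (-6.60), Gzmb, Fgf3 (-6.30), Mfsd2b, Car1, Kif26b (-5.46), Emilin2 (-5.11), Kcnc1 (-5.00), Tuba8 (-4.66), Scin (-4.62) and Cavin2 (-4.51) to Ctsg. St8sia6 (ENSMUSG00000003418, chr2:13651021-13794064, minus strand), a sialyltransferase, stood at 0.106, 6.03 and 0.244 against 524, 846 and 371. Fgf3, a fibroblast growth factor, stood at 0.105, 0 and 1.86 against 305, 394 and 399, and Kif26b, a kinesin-family protein, at 0.101, 0 and 0.232 against 144, 464 and 87.4. All 3 were at most 6.03 in every CD135+ library. Kif26b could be tested only through the CD135- libraries, so it had to differ (adjusted p = 8.89e-05). St8sia6 and Fgf3 passed whichever library was left out (adjusted p = 1.15e-05 and 4.26e-05 with all 6). Of the other lower genes named here, Gzmb, Mfsd2b, Kcnc1, Tuba8 and Cavin2 did so too. Scin failed without CD135- replicates 1 or 2 or CD135+ replicate 3 (up to 0.105) and Emilin2 passed only without CD135+ replicate 2 (up to 0.165 otherwise).

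Housekeeping lists stayed near the median of all genes: none of 22 glycolysis genes (median 0.06), 12 mitochondrially encoded genes (0.16), 81 ribosomal protein genes (-0.11), 13 immediate early and stress genes (-0.20) or 6 stroma and endothelium genes (0.23) passed. Among markers of other cell types, Cd79a and Ebf1 (B cells), Bcl11b (T cells) and Lepr (stroma) were under 1 ppm in all 6 libraries. Not all members were so low. The T cell markers listed, Cd3e, Bcl11b and Lck, summed to 5.62 to 16.4 ppm in CD135+ and 5.26 to 15 ppm in CD135- libraries. The stroma and endothelium markers listed summed to 0.722 to 0.942 and 0.558 to 2.4 ppm.

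**Figure D4:**
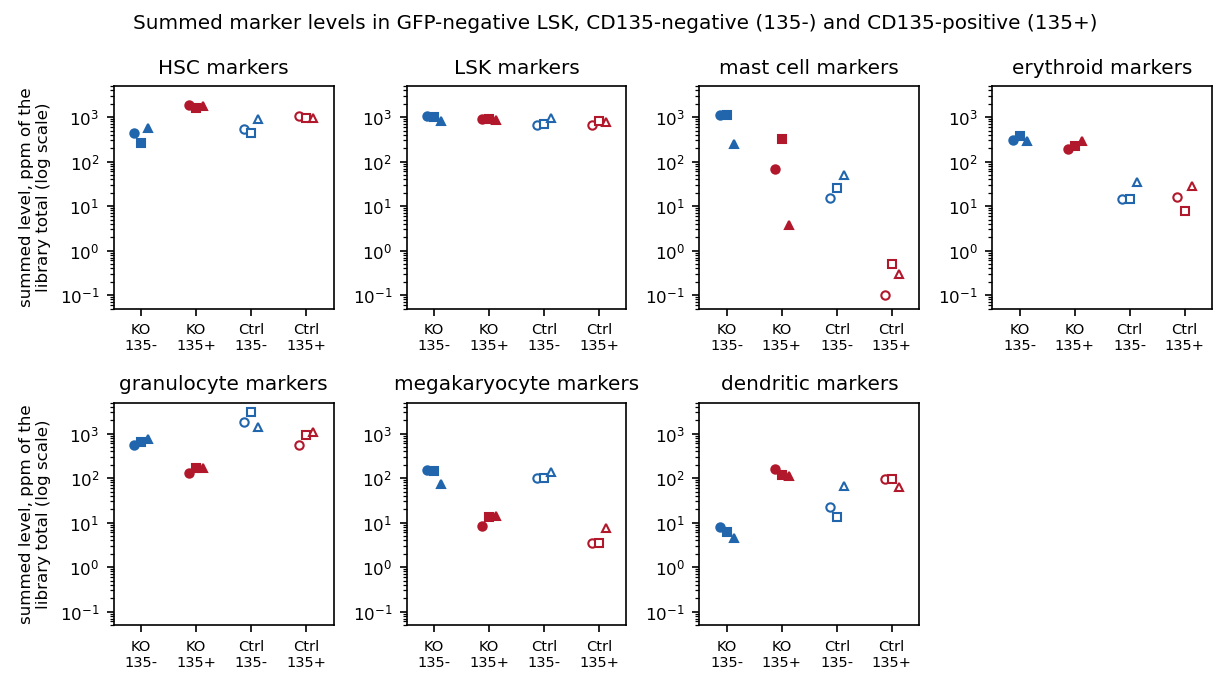
Summed level of the markers of 7 cell classes in each GFP-negative library, in ppm of the library total on a log axis, for CD135- (blue) and CD135+ (red) cells of KO (filled) and Ctrl (open) mice. Circles, squares and triangles are replicates 1, 2 and 3; among KO libraries the HSC and dendritic marker sums are higher on the CD135+ side, and the granulocyte, megakaryocyte and erythroid sums are higher on the CD135- side.

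The same contrast in Ctrl cells, which shares no library with it, placed 19 genes higher and 41 lower in CD135+ cells (0.117% and 0.253% of genes, 0.37% together). Of the KO genes, 13 of the 67 higher ones were also higher in Ctrl (19.4% of the KO list and 68.4% of the Ctrl list), and 21 of the 75 lower ones were also lower (28% and 51.2%). No gene passed in opposite directions. The sign was the same in 132 of the 142, or 93.0%, and in 60.4% of all genes tested. Dntt, Notch1 and Ighm differed by 3.58, 2.08 and 2.35 in Ctrl cells, and Gata1, Mfsd2b and Itga2b by -4.61, -6.19 and -4.42, each passing there too. Medians in Ctrl cells were 1.18 for lymphoid priming and -2.59 for early erythroid genes, and 0.06 for stem cell transcription factors and 0.48 for Hox genes. Whether these medians differ between the genotypes was not tested.

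The test of the difference between genotypes, an interaction over the 12 GFP-negative libraries in the fit, was passed by 0 of 16215 genes in limma (0.0%), with 384 at an unadjusted p under 0.05 (2.37%). Genes among those with the smallest p in each direction, at 5 ppm or more, are therefore given as values. Gzmb had an interaction of -5.03 (adjusted p = 0.229), and Ctrl CD135- libraries held it at 6.31, 2.83 and 9.98 normalised counts and Ctrl CD135+ libraries at 0.129, 0 and 0. Kif26b (-4.74), Cd180 (-1.83) and Cdk6 (-1.36) stood on the same side, with adjusted p-values of 0.229, 0.229 and 0.653. Kif26b could be tested only through the CD135- libraries of KO mice, so a negative KO difference was built in. Cdk6 stood at 4000.2, 5642 and 5467 against 8585, 9986 and 6506 in Ctrl cells, where the gates were apart as well. On the positive side stood Paqr9 (4.10), Unc45b (3.90), Lhcgr (3.52), Nxpe2 (3.40) and Trib1 (3.20). Hlf stood at 7215, 5811 and 5889.8 against 3848, 3217 and 5134 in Ctrl cells, and its interaction was 1.65 (adjusted p = 1). With array weights 14 genes passed, among them Gzmb, Kif26b, Cd180, Cdk6 and Hlf. Without CD135+ replicate 2 of the KO libraries Gzmb and Clec4a1 passed.

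**Figure D5:**
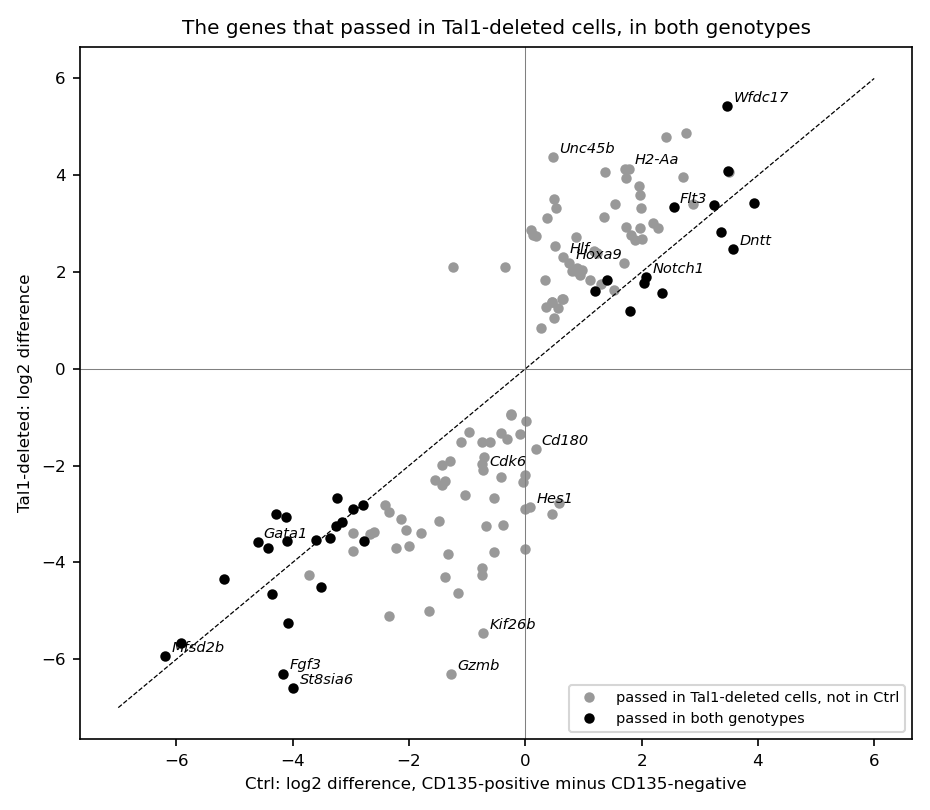
Log2 difference between CD135+ and CD135- cells in KO (vertical) and in Ctrl mice (horizontal) for the 142 genes that passed in KO. Black points also passed in Ctrl (34 genes, 13 higher and 21 lower) and grey points did not. The dashed line marks equal differences. Points off it in the lower middle include Gzmb and Kif26b, the latter testable only through the CD135- libraries of KO mice.

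In GFP-positive KO cells the same contrast was passed by 49 genes upward and 50 downward (0.302% and 0.308%, 0.611% together). CD135+ replicate 3 of these libraries stands apart, with 11684 genes above 1 normalised count against 14978 to 15699 in the other 5. Without it and a Ctrl library of low detection, 62 passed upward and 52 downward, 72 of the 99 among them. These libraries carry the same description numbers as the GFP-negative ones, so they may come from the same sources. Of the GFP-negative calls, 15 higher genes (22.4% of the 67 and 30.6% of the 49) and 18 lower genes (24% and 36%) were shared, or 17 and 19 without those 2 libraries. Gzmb and Ctsg differed by -6.32 and -4.56 there, and Mpo by -2.92. The 15 genes called the same way in Ctrl GFP-negative, KO GFP-negative and KO GFP-positive cells comprised 9 higher and 6 lower, including Dntt, Notch1, Satb1, Ighm, Tlr7 and Wfdc17 among the higher and St8sia6, Fgf3, Cpa3, Itga2b, Ms4a3 and Zbtb16 among the lower. Without the 2 libraries Itga2b and Tlr7 no longer passed in GFP-positive cells (adjusted p = 0.122 and 0.0586). Hlf, by comparison, differed by 0.20 in GFP-positive KO cells (0.38 without the 2 libraries) and did not pass there, a difference between the reporter gates that was not tested.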

How the data were processed

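RNA of sorted LSK cells was sequenced for 76 cycles after low-input library preparation, per the labels' protocols. The submitters' processing notes name Trimmomatic 0.33, HTSeq 0.6.1, edgeR and mm10. No aligner or normalisation function can be named (not given in the sources used here). As for the unit, it is a signal: the authors deposited normalised counts, and 0.594% of values above 0 were whole to within 0.001. Reads could not be recovered from them, and no count model was fitted.

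Genes with at least 1 ppm of the library total in at least 3 libraries were kept. A model of 8 group means was fitted to log2(value + 4.1) in all 24 libraries with limma 3.58.1 (R 4.3.3; a variance trend on level; degrees of freedom 16 residual and 9.53 prior), where 4.1 is 0.5 ppm of the mean library total. p-values were adjusted over all genes within each of 4 comparisons, and the procedure was tested on simulated data. Coordinates came from GENCODE M21 for 16985 of 17149 identifiers. The rule for named genes took the 12 largest differences each way without overlap and with at least 5 ppm in the higher group, 5 interactions each way, and up to 6 passing and 4 other members per list. Tal1, Flt3, Rag1, Rag2, Dntt, Il7r, Kit and Ly6a were always read, and predicted genes were not named. A few genes the rule takes are not reported here. Some members outside it are given for context and were chosen after their values were seen. The comparison and all lists were chosen with earlier results of these data known. Alternatives were another pseudocount, no filter, other scaling, array weights, subsets of libraries and a replicate block.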

Additional observations from a re-analysis of the deposited data

How the results depend on the processing

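The 142 genes became 90 with a pseudocount of 0.1 ppm, 283 after quantile normalisation (163 higher and 120 lower, or 57.6% higher against 47.2%), 1059 with array weights, 460 without the 2 libraries of low detection, which lie outside the 6 compared, and 613 from the 6 libraries alone. From the 12 GFP-negative libraries alone, a setting chosen after seeing the data, 634 passed. Leaving out 1 of the 6 libraries gave 37 to 151. For the interaction, array weights gave 14 genes and a pseudocount of 2 ppm gave 1 in place of 0, and fits lacking 1 library gave 0 to 2. The cause of these shifts was not tested. The Tal1 difference of -0.195 lay between -0.42 and 0.09 when 1 library was left out, turning positive without CD135- replicate 2.

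Replicate numbers are shared by the gates. Deviations of same-numbered libraries correlated by 0.079, 0.055 and 0.201, and those of other pairs by -0.159 to 0.106. CD135+ replicates 1 and 3 correlated best with their own number, and CD135+ replicate 2 with CD135- replicate 1 (0.106). Ddx3y was present in replicate 3 on both sides of the gate, so the numbers may mark shared sources. The labels do not say, and the main fit used no pairing. With the replicate block 1197 genes passed from the 6 libraries, 185 from all 24, and 12 passed the interaction from the 12 GFP-negative libraries. The deposited values keep no read depth, which limits what genes near 0 can show.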

Other observations

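Genes that passed whichever of the 6 libraries was left out and under 11 other settings included several outside the lists, read after their values were seen. Cd180, a Toll-like receptor homologue of B cells and myeloid cells, stood at 538, 538 and 792 normalised counts in CD135+ cells of KO mice against 2023, 1977 and 1819.9 in CD135- cells, a log2 difference of -1.66 ± 0.27 (SE; adjusted p = 0.00167) in limma's test. Lgals9, which encodes galectin 9, was lower as well (log2 difference -1.52, adjusted p = 0.00224), as was the organic cation transporter gene Slc22a3 (log2 difference -2.31, adjusted p = 0.00224). Trib3, a stress-induced pseudokinase, stood at 71.9, 21.9 and 19.9 against 0.0435, 0 and 0 (log2 difference 3.14, adjusted p = 0.00258), but could be tested only through the CD135+ libraries, and St8sia4, a polysialyltransferase, was higher (log2 difference 1.60, adjusted p = 0.00224) where its relative St8sia6 was lower.

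Some passing genes of 1 direction lay within 300 kb of each other (GRCm38/mm10): Wfdc17 and Wfdc18 (chr11:83703991-83711348) and Hlf and Stxbp4 (chr11:90336536-90638084) were higher, while Ms4a2 and Ms4a3 (chr19:11615523-11640851), Hes1, Gp5 and Atp13a3 (chr16:30064384-30405975) and Gata1 and Slc38a5 (chrX:7959260-8280179) were lower. How often any tested genes lie this near each other was not tested, so these are positions only.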
